A study of Homo sapiens with 16 samples.

Results

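The HOX genes were described through the chromatin that covers their 4 clusters, measured by ATAC-seq, a method in which a transposase cuts and tags open DNA. All peaks of the deposited annotation that lie in 4 windows of GRCh38 were taken: 27.08 to 27.22 Mb of chromosome 7 for HOXA, 48.52 to 48.74 Mb of chromosome 17 for HOXB, 53.93 to 54.06 Mb of chromosome 12 for HOXC and 176.08 to 176.20 Mb of chromosome 2 for HOXD. They numbered 85 of the 164980 peaks of the series, with 25 in HOXA, 24 in HOXB, 18 in HOXC and 18 in HOXD, and 38 HOX genes of these windows were followed. The 16 libraries came from Cal33 and SAS, established HPV-negative head and neck squamous carcinoma lines, each transfected with a non-targeting siRNA (siControl) or with siRNA against ITGA7 (siITGA7), the gene of the laminin receptor subunit α7 integrin. Cells of all 4 groups were moved into a laminin-rich matrix 24 h after transfection and gave nuclei at 48 h, and each group held 4 replicates that the design text calls independent and biological. All groups thus share the matrix and the time after transfection, and each tumour is represented by a single established line. Per the labels' protocol the siRNA was a pool of reagents, but that text describes RNA work, so the detail is not certain for these cultures.

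HOX genes encode homeodomain transcription factors that give cells their position along the body axis. In each cluster the genes lie in the order in which they act, from the anterior genes of group 1 to the posterior genes of group 13. In embryos a cluster is opened progressively from its anterior end, and Polycomb proteins keep the remaining genes closed while trithorax proteins maintain the active ones. The position is remembered in adult tissue: cells of the head and oral lining normally use few HOX genes, and many carcinomas of this region carry transcripts of posterior ones. HOX proteins bind DNA together with cofactors of the TALE class (PBX, MEIS and PKNOX), and the clusters also encode miRNAs (miR-10, miR-196, miR-615) and long noncoding RNAs such as HOTTIP, HOTAIR, HOTAIRM1 and HAGLR.

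Total counts per library ran from 3980563 to 13285086 in Cal33 and from 758590 to 4870187 in SAS, and were lowest in SAS siITGA7 (758590 to 1867047). Levels are given as scaled CPM, counts per 1000000 after trimmed-mean (TMM) scaling, with the lines placed on 1 scale through their siControl libraries; 3 counts corresponded to between 0.261 and 3.89 scaled CPM, depending on the library. Start peaks of 5 squamous keratinocyte marker genes summed to 455 to 611 scaled CPM in Cal33 siControl and to 159 to 185 in SAS siControl. Over all peaks of this marker list, 33 were tested between the lines (edgeR, adjusted p under 0.05). Of these, 13 were higher and 12 lower in Cal33 (median log2 fold change 0.12), against 37.5% and 41.1% of all peaks tested. Of the other marker lists, the start peaks of COL1A1 and PDGFRA (fibroblast) and CD14 (blood) were at 5 scaled CPM or more in both lines, and CDH5 (endothelial) in Cal33. Of 10 tested peaks of the fibroblast list, 9 were lower in Cal33 and 1 higher (median log2 fold change -0.83). Of 7 of the blood list, 1 was lower and 2 higher (median -0.04). Over all 63 tested peaks of the endothelial list, 60 were lower in Cal33 than in SAS and 3 higher (median log2 fold change -4.33). The 3 higher ones were all in CDH5. Introns of VWF led the lower ones. The list's 70 peaks came from 4 genes, so a gene with many peaks weighs heavily in these counts. No start peak of this list was open in SAS. The ITGA7 promoter peak did not pass the test in Cal33 (log2 fold change -0.12 ± 0.12 SE, adjusted p = 0.552, edgeR) or in SAS (-0.27 ± 0.18, adjusted p = 0.395); an siRNA acts on the transcript, so these peaks do not check the knockdown, which was not analysed here. In these bulk samples, fewer cells with a site open and less opening per cell cannot be told apart.

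The stretches of DNA that the results turn on are the 250 bases before the start of HOXA4 and HOXD8, open in Cal33, of HOXD1, open in SAS, of HOXD11, open in both, and of HOXA11, which changed after siITGA7. They are taken from RefSeq (GRCh38.p14) and read 5′ to 3′ on the gene's strand. Capitals mark matches, on either strand, to the composite motif of PBX and HOX proteins, TGATNNAT, or to the motif of MEIS proteins, TGACAG, which do not overlap here. The motif of the AP-1 factors, TGANTCA, and the TATA box, searched as TATAAA, have no match in these 5 stretches.
HOXA4, chr7:27130758-27131007, minus strand: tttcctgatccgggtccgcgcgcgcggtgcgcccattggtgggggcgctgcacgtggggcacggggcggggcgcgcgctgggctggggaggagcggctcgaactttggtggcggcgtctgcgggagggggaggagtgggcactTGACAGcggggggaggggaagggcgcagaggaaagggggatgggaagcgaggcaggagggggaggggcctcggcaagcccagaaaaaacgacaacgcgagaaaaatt
HOXD8, chr2:176129455-176129704, plus strand: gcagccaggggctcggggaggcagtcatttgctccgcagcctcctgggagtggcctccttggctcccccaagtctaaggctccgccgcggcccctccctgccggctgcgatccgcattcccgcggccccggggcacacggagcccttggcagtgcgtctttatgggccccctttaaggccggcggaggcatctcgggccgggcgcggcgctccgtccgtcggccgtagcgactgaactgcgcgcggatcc
HOXD1, chr2:176188418-176188667, plus strand: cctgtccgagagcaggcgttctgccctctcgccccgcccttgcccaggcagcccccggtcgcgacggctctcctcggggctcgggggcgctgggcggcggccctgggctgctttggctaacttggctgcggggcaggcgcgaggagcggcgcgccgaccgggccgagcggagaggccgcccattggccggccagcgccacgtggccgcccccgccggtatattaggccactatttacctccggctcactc
HOXD11, chr2:176107030-176107279, plus strand: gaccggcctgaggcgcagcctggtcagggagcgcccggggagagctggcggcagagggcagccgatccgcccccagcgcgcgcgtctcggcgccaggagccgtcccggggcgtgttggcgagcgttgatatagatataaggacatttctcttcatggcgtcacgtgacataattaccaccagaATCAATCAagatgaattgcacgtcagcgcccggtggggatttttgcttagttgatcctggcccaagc
HOXA11, chr7:27185233-27185482, minus strand: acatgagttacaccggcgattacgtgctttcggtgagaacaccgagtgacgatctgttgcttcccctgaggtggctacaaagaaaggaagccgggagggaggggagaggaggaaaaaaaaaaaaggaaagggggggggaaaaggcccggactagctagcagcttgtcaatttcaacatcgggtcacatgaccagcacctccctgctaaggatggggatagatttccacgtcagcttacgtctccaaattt
All 250 bases lay inside a peak for HOXA4, HOXD1 and HOXD11, and 211 of them for HOXD8, whereas the HOXA11 peak reached 18 bases upstream of the start and otherwise covered the gene's first part. HOXA4 held 1 MEIS motif and HOXD11 held 1 PBX and HOX motif. Over the 26 distinct promoters of 19 HOX genes matched in the table, TGATNNAT was found in 3 (11.5%, against 6.49% of 34943 promoters of the same length), TGACAG in 2 (7.69%, against 13.1%), TATAAA in 5 (19.2%, against 10.8%) and TGANTCA in none (against 6.59%). CpG pairs numbered a median of 19.5 per 250 bases in the HOX promoters and 11 in all. A match is a run of letters and not a bound site.

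The peaks of the 4 windows were more often at promoters than those of the series, with 29 of 85 (34.1%) in the annotation's promoter class against 12.4% of all peaks; 23 lay in introns, 14 in exons, 10 between genes and 9 at transcript ends. A gene was called open in a line when the peak at its RefSeq start, within 1000 bases, reached 5 scaled CPM in at least 3 of the 4 siControl libraries. Peak length does not enter this rule, so at an equal level per kilobase a wide peak passes more easily than a narrow one. In SAS, HOXC10 was open at 4.68 scaled CPM per kilobase over 1676 bases, and HOXB4 was not open at 7.32 over 394 bases. Of 38 genes, 27 had a start peak, 13 were open in Cal33 and 16 in SAS. HOXC4, HOXC5 and HOXC6 were placed at 1 shared start, their outer boundary, so starts further inside them are not covered. For HOXA3, HOXA10, HOXC8 and HOXD13, which each had 2 start peaks, the peak with more counts was used. Both lines shared 11, HOXA4 and HOXD8 were open in Cal33 alone, and HOXA5, HOXA7, HOXB6, HOXB9 and HOXD1 in SAS alone. No peak was listed within 1000 bases of the start used for the other 11: HOXA2, HOXA6, HOXB2, HOXB3, HOXB8, HOXB13, HOXC9, HOXC12, HOXD3, HOXD9 and HOXD12. For HOXD3 that start was chr2:176157307, while the gene's outer boundary, 176152529, lay under the HOXD4 start peak. For HOXB3 only the gene boundary was used, so other starts of these genes are not covered. Counted over all window peaks, 24 (28.2%) were open in Cal33 and 30 (35.3%) in SAS, below the 55.1% and 58.2% of all promoter-class peaks and above the 22.0% and 24.5% of all peaks. The count depended on the level in SAS, where 25 genes passed at 2 scaled CPM and 10 at 10 scaled CPM, against 17 and 11 in Cal33. The open calls also rest on the TMM scaling between the lines. With total counts as library size, levels are lower in Cal33 siControl and higher in SAS siControl. Several means lay close to the level of 5 scaled CPM, so these calls are not firm. Called open were HOXA11 in Cal33 (mean 5.10) and HOXA7 in SAS (4.91). Called not open were HOXB7 in Cal33 (5.08) and in SAS HOXB7 (5.12), HOXD4 (5.71), HOXB5 (4.75), HOXB1 (4.71) and HOXA4 (4.45).

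**Figure D1:**
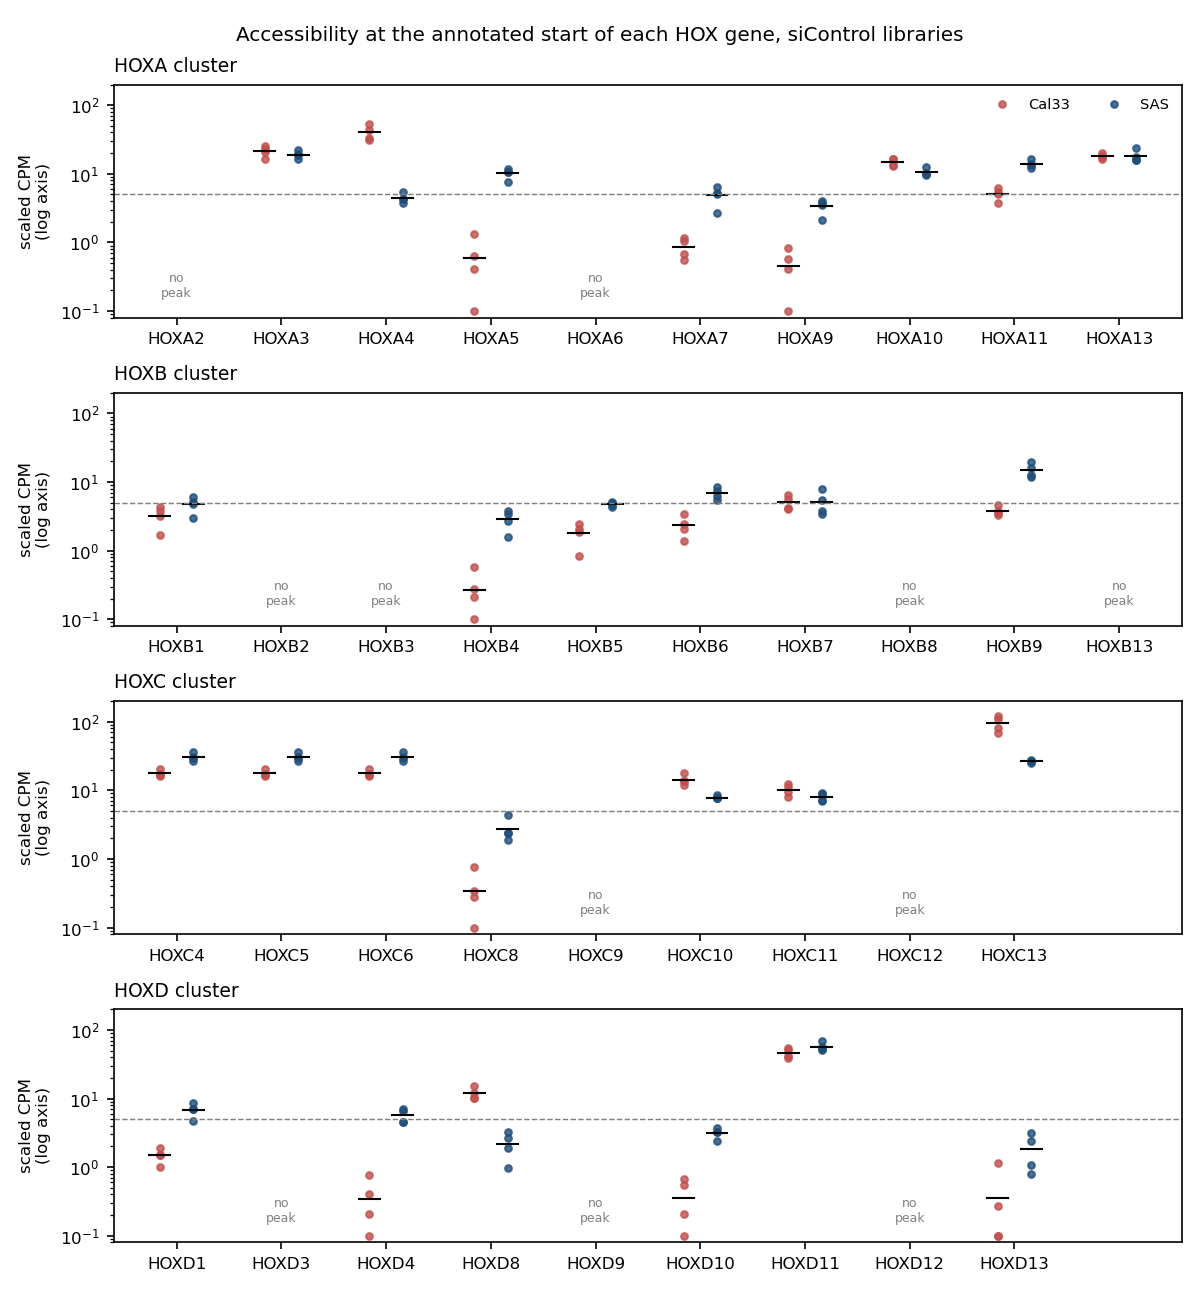
Scaled CPM (log axis, values under 0.1 drawn at 0.1) of the start peak of each HOX gene in the 4 siControl libraries of Cal33 (red) and SAS (blue), with the mean as a black bar and the level of 5 scaled CPM as a dashed line. In Cal33 the means were highest for HOXC13 (94.5), HOXD11 (46.7) and HOXA4 (40.1), not adjusted for peak length, and HOXA5 was above the line in SAS and near 1 or under in Cal33.

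In the HOXA cluster the open genes differed between the lines around groups 4 to 7 and were largely shared at the posterior end. HOXA4, an anterior gene, had its start peak at chr7:27129748-27131390, a promoter-class peak. Its Cal33 siControl libraries measured 42.9, 53.2, 31.3 and 33 scaled CPM and its SAS siControl libraries 5.43, 4.36, 4.31 and 3.71. The 2 groups were far apart, and the difference was 3.13 ± 0.19 SE on the log2 scale (Cal33 over SAS, adjusted p = 1.18e-22, edgeR). Its neighbour HOXA5, which patterns the lung and trachea, was the reverse at chr7:27143051-27143906. HOXA5 gave 1.33, 0, 0.412 and 0.626 scaled CPM in Cal33, a total of 13 counts, and 10.6, 7.62, 11.8 and 10.6 in SAS. Every Cal33 value lay below every SAS value, with a log2 fold change of -3.98 ± 0.34 (adjusted p = 1.41e-16). HOXA7, a thoracic-level gene, followed HOXA5, with 0.549 to 1.14 scaled CPM in Cal33 and 2.72 to 6.52 in SAS (-2.59 ± 0.35, adjusted p = 1.56e-09).

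These HOXA ratios can also be read inside a library, where no scaling enters. The HOXA4 peak held 12.5% to 17.2% of the HOXA window's counts in Cal33 siControl and 1.70% to 2.33% in SAS siControl. The HOXA5 peak held 0% to 0.437% in Cal33 and 3.73% to 5.89% in SAS.

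At HOXA3, HOXA10, HOXA11 and HOXA13 both lines were open. HOXA3, which shapes the organs of the pharyngeal arches, had 2 start peaks. At the outer one (chr7:27150221-27151504), which also covers HOXA-AS3, the means were 21.5 ± 3.77 (SD, n = 4) scaled CPM in Cal33 and 19.0 ± 2.36 in SAS, and at the inner one (chr7:27113124-27114710) 7.38 ± 0.678 and 15.5 ± 1.57. The inner start alone differed between the lines (-1.05 ± 0.18, adjusted p = 4.23e-07), while the outer one did not pass (0.15 ± 0.15, adjusted p = 0.357). HOXA10, a uterine and hindlimb gene, measured 14.8 ± 1.86 in Cal33 and 10.6 ± 1.44 in SAS at the larger of its 2 start peaks, chr7:27173287-27174434 (0.45 ± 0.17, adjusted p = 0.0141), a difference that turned to -0.045 with total counts as library size (adjusted p = 0.824; range over the alternatives 7.43e-06 to 0.993). HOXA13, which is needed for digits and the genital tract, shares its start peak at chr7:27199010-27201065 with HOTTIP, a noncoding RNA that binds WDR5. Its levels were 19.8, 18.0, 17.6 and 16.5 scaled CPM in Cal33 and 23.9, 15.8, 15.7 and 17.8 in SAS, which overlap (-0.04 ± 0.15, adjusted p = 0.836). ATAC-seq reads carry no strand, so a peak shared by a gene and an antisense or divergent RNA cannot be given to either. HOXA11, a forearm and uterine gene, was open in both but lower in Cal33, at 5.51, 3.73, 6.17 and 5.01 against 13.3, 16.3, 13.9 and 12.2 (-1.36 ± 0.20, adjusted p = 8.93e-09). HOXA9, a gene best known from leukaemia, stayed under the level in both lines, at 0 to 0.835 in Cal33 and 2.12 to 4.08 in SAS.

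In the HOXB cluster no gene was open in Cal33, the fewest of the 4 clusters, and in SAS HOXB6 and HOXB9 were open, as many as in HOXD. HOXB9, which acts in the thoracic skeleton and the mammary gland, measured 4.56, 3.73, 3.57 and 3.34 scaled CPM in Cal33 and 19.3, 15.8, 12.7 and 11.9 in SAS at chr17:48625327-48626734. Every SAS library lay above every Cal33 library (-1.95 ± 0.21, adjusted p = 1.71e-12). HOXB6 measured 1.37 to 3.39 in Cal33 and 5.45 to 8.48 in SAS (-1.69 ± 0.28, adjusted p = 2.30e-07). HOXB7 lay at the level in both lines, with 4.07 to 6.46 in Cal33 and 3.44 to 7.88 in SAS. HOXB5 in SAS was just under it, at 4.89, 4.36, 4.70 and 5.03, and HOXB1, the hindbrain gene, reached it in 2 of 4 SAS libraries, at 2.99, 5.99, 5.09 and 4.77. HOXB4 had 6 counts in all 4 Cal33 siControl libraries together and 38 in SAS.

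Summed over the 24 HOXB peaks, accessibility was 55.3 ± 8.88 (SD, n = 4) scaled CPM in Cal33 siControl and 123 ± 8.52 in SAS siControl. Scaled by total counts the sums were 43.6 ± 4.56 and 129 ± 9.02. Peaks beyond HOXB9 added to this gap. The start of LINC02086, a noncoding gene between HOXB9 and HOXB13, measured 2.85, 2.37, 1.10 and 0.417 in Cal33 and 15.2, 14.2, 12.5 and 14.3 in SAS (-3.12 ± 0.27, adjusted p = 3.28e-16). A peak in an exon of LINC03057, at chr17:48636586-48637376, had 2 counts in the 4 Cal33 libraries and 94 in the 4 SAS libraries. Its levels were 0 to 0.190 and 5.56 to 7.88 scaled CPM.

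In HOXC the same 6 genes were called open in both lines, but the weight lay elsewhere. HOXC4, HOXC5 and HOXC6 were all called through 1 peak at their shared outer boundary. Their calls therefore do not speak for starts further inside these genes. HOXC13, which controls hair and nail keratins, had the highest level per length of the HOX starts in Cal33. Its peak at chr12:53938211-53939999 measured 108, 121, 68.6 and 81.2 scaled CPM in Cal33 and 27.7, 26.7, 27.0 and 25.2 in SAS. The groups did not overlap (1.81 ± 0.15, adjusted p = 1.48e-16). Per kilobase this was 52.8 ± 13.3 (SD) in Cal33, above 91.3% of promoter-class peaks, and 14.9 ± 0.60 in SAS, above 73.0%. HOXC10, a limb gene, was higher in Cal33 by 0.87 ± 0.18 under TMM scaling (adjusted p = 2.82e-05), but with total counts as library size the value was 0.37 (adjusted p = 0.0828; range over the alternatives 1.86e-10 to 0.458). HOXC11, whose start lies beside HOTAIR, measured 7.96 to 12.5 in Cal33 and 7.08 to 9.01 in SAS, which overlap. The shared start of HOXC4, HOXC5 and HOXC6 leaned the other way, with 20.3, 15.9, 16.9 and 17.3 scaled CPM in Cal33 and 29.3, 30.5, 36.0 and 26.5 in SAS (-0.80 ± 0.14, adjusted p = 1.37e-06). Sites further inside these genes differed more. Peaks at chr12:54028361-54028851 (-4.26, adjusted p = 8.19e-13) and chr12:54036833-54037119 (-2.24, adjusted p = 5.60e-09) were lower in Cal33 under each scaling. So was the promoter-class peak at chr12:54032364-54033657, inside HOXC4 and HOXC5 and beside MIR615 (-2.32, adjusted p = 1.55e-14, edgeR). The peak at chr12:54021491-54021942 did not pass (0.54, adjusted p = 0.0809). Alikeness at the shared start thus does not extend to the whole of these genes. HOXC8, a thoracic gene, was near 0 in Cal33, at 0 to 0.760, and at 1.90 to 4.36 in SAS.

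The share of HOXC counts in the 7 peaks nearest to a gene of groups 9 to 13 put this in 1 figure per library. It was 83.2%, 86.6%, 78.3% and 81.1% in Cal33 siControl and 49.7%, 46.8%, 47.8% and 48.2% in SAS siControl. The siITGA7 libraries, which the description above did not use, gave 79.9% to 84.4% in Cal33 and 40.9% to 54.5% in SAS. In HOXA, HOXB and HOXD the same share was lower in Cal33 siControl than in SAS siControl, with means of 34.0% ± 2.50 against 39.4% ± 2.26, 29.5% ± 2.03 against 43.1% ± 2.40 and 58.9% ± 1.85 against 68.1% ± 2.02 (SD, n = 4). HOXC thus ran opposite to the other clusters. In HOXB the 9 peaks so counted include the LINC02086 start and the LINC03057 exon peak, 19827 and 10228 bases from the HOXB9 start. The HOXB share is therefore not one of HOX gene starts alone. After siITGA7 in Cal33 the share stood higher than in siControl in HOXA (36.6% to 39.1% against 30.5% to 36.2%), HOXB (33.7% to 37.3% against 26.9% to 31.6%) and HOXD (a mean of 63.3% ± 1.36 against 58.9% ± 1.85), and in HOXC the ranges overlapped. In SAS the siControl and siITGA7 ranges overlapped in every cluster. These shares are descriptions and carry no test.

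**Figure D2:**
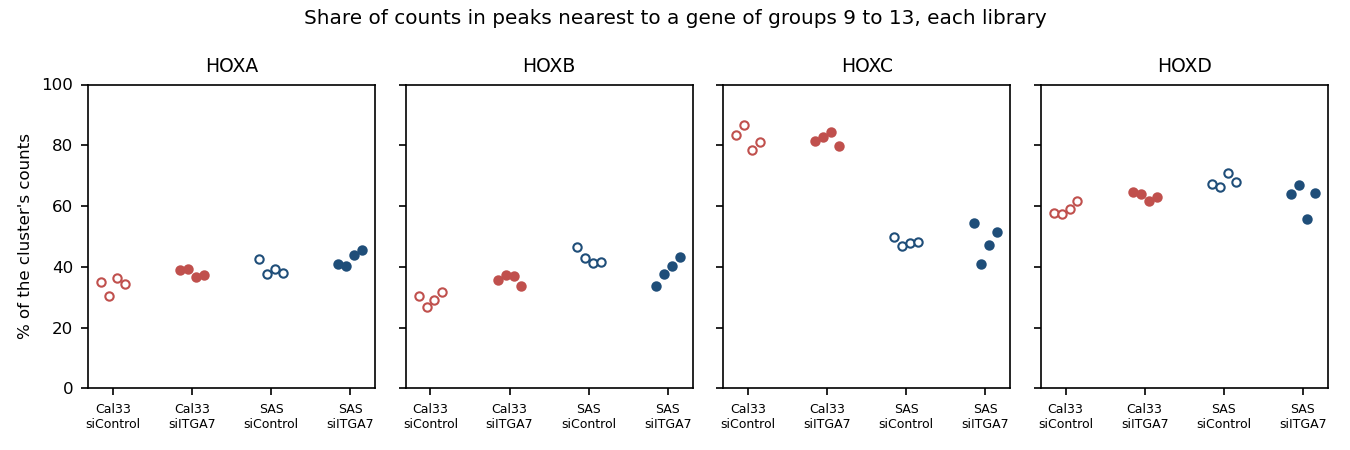
Percent of each cluster's counts that lay in peaks nearest to a gene of groups 9 to 13, for each library of the 4 groups (open circles siControl, filled circles siITGA7, red Cal33, blue SAS). In HOXC the Cal33 libraries lie between 78.3% and 86.6% and the SAS libraries between 40.9% and 54.5%, with no overlap.

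In HOXD, the posterior gene HOXD11, a partner of HOXA11 in the forearm of the mouse, took the largest share of counts in both lines. Its start peak, at chr2:176104155-176107468, was 3314 bases long and measured 51.3, 54.3, 41.7 and 39.4 scaled CPM in Cal33 and 50.8, 68.1, 52.3 and 55.6 in SAS. It held 46.1% ± 2.03 and 47.9% ± 1.82 of the HOXD counts, and the lines overlapped. HOXD8 differed: its start peak at chr2:176129494-176130938 gave 15.2, 12.2, 10.3 and 10.0 in Cal33 and 1.90, 3.27, 0.979 and 2.65 in SAS. The highest SAS library lay far below the lowest Cal33 library, and the log2 fold change was 2.57 ± 0.27 (adjusted p = 5.78e-13). HOXD1, an anterior gene that in the mouse acts in pain-sensing neurons, was the reverse, with 1.02 to 1.88 in Cal33 and 4.77 to 8.71 in SAS (-2.12 ± 0.30, adjusted p = 4.84e-09). HOXD4, a hindbrain and vertebral gene with MIR10B beside it, had 8 counts in Cal33 and 78 in SAS (-3.70 ± 0.41, adjusted p = 2.35e-12), and reached 5 scaled CPM in 2 of 4 SAS libraries. HOXD10 gave 7 counts in Cal33 and 46 in SAS (-3.11 ± 0.44, adjusted p = 4.46e-09). HOXD13, the digit gene, had no library at the level in either line.

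Ordered by level per kilobase, the Cal33 starts began with HOXC13 at 52.8 ± 13.3 (SD), HOXA4 at 24.4 ± 6.18, the outer HOXA3 start at 16.8 ± 2.94 and HOXD11 at 14.1 ± 2.18. The last 2 lay within their spread. In SAS the order began with HOXD11 at 17.1 ± 2.37, HOXC13 at 14.9 ± 0.60, the shared HOXC4, HOXC5 and HOXC6 start at 14.9 ± 1.96, HOXA3 at 14.8 ± 1.84, HOXA11 at 12.5 ± 1.57 and HOXA5 at 11.8 ± 2.06. Neighbours in that SAS order did not differ beyond their spread, so that SAS had no start that stood above the rest as HOXC13 did in Cal33.

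Of the 85 window peaks, 52 passed the filter on low counts for the comparison of the lines, and 40 differed at an adjusted p under 0.05 (edgeR), 13 higher and 27 lower in Cal33. Over all 73404 peaks tested, 78.6% differed, so this share (76.9%) was near the background; 37.5% of all peaks were higher in Cal33 and 41.1% lower. The groups did not overlap at 35 of the 52, against 70.5% of all peaks. The median log2 fold change was -0.68 over the HOX peaks, -0.08 over all tested peaks and 0.44 over promoter-class peaks. With total counts as library size, a setting that moved the median of all peaks by -0.50, 9 HOX peaks were higher and 33 lower, and with promoter-based factors, which moved it by -0.45, 9 and 32. Under these and the main scaling, 9 peaks were higher in Cal33 in each, 27 were lower in each, and the other 16 were called under some of the 3 or under none. The 9 included the HOXA4, HOXC13, HOXD8, HAGLR and HOTAIRM1 starts, while HOXC10 and HOXA10 were among the 16. HOXA13 and HOXD11, not called under TMM, were lower in Cal33 with total counts (-0.54 and -0.78). Taken on the siITGA7 libraries, the difference gave 11 higher and 34 lower of 58 tested.

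**Figure D3:**
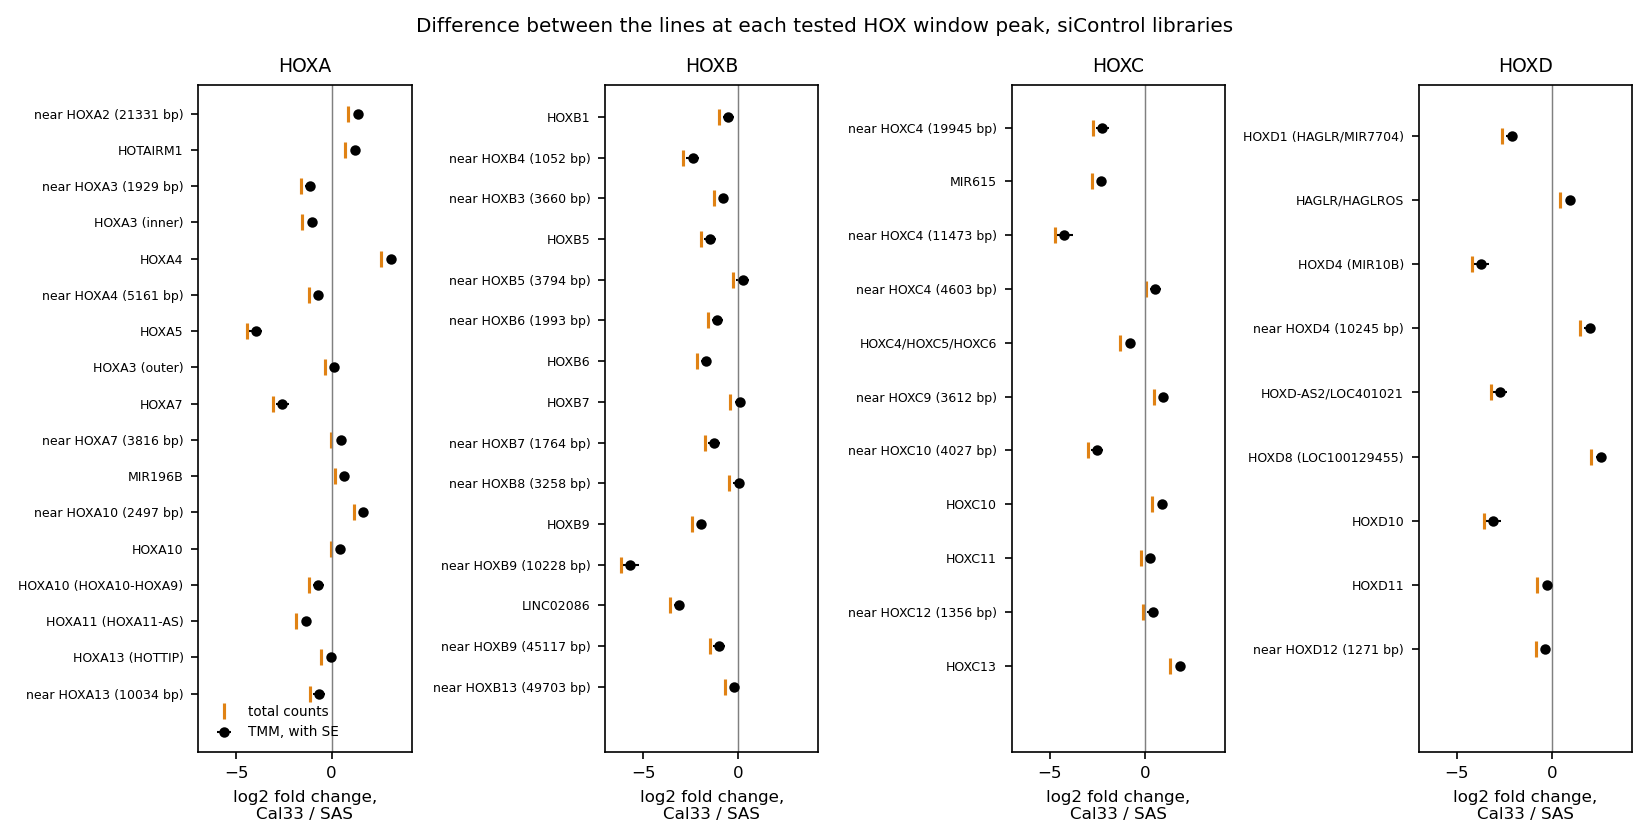
Log2 fold change (Cal33 over SAS, siControl) of each tested HOX window peak, ordered from the anterior to the posterior end of each cluster, under TMM scaling with its SE (black) and with total counts as library size (orange). Labels name the gene whose start a peak covers, or the nearest HOX start and its distance. HOXA4, HOXC13 and HOXD8 lie right of 0 under both scalings, and in HOXB 10 peaks passed as lower and none as higher.

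The peaks around the clusters differed between the lines as well, and DNA copy number was not measured here. The median line difference of tested peaks within 5 Mb on each side was 0.46 for HOXA, -0.59 for HOXB, 0.58 for HOXC and 0.42 for HOXD. Less this value, HOXA4 stood at 2.67, HOXC13 at 1.23, HOXB9 at -1.36 and HOXC10 at 0.29. Over promoter-class peaks alone the surrounding medians were 1.02 for HOXA, 0.02 for HOXB, 0.73 for HOXC and 0.64 for HOXD. The values left at starts thus depend on which surrounding peaks are subtracted. The window medians were -0.04, -1.10, 0.27 and -0.37, below the surrounding median in each cluster.

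The noncoding genes of the clusters split in the same way. HOTAIRM1, an RNA from the anterior end of HOXA that is induced by retinoic acid, starts under a 3060-base peak at chr7:27095462-27098521. This peak measured 80.7, 85.1, 57.9 and 67.6 scaled CPM in Cal33 and 30.7, 38.1, 26.4 and 32.1 in SAS (1.21 ± 0.14, adjusted p = 3.77e-11). In HOXD, the shared start of HAGLR and HAGLROS measured 11.9 to 23.4 and 8.03 to 10.9 (0.94 ± 0.18, adjusted p = 5.84e-06), and that of HOXD-AS2 0.274 to 0.950 and 3.33 to 4.90 (-2.74 ± 0.37, adjusted p = 1.82e-09).

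The miRNA genes of the clusters are shown because miR-196 copies from HOXA, HOXB and HOXC share 1 seed, the bases that select targets. Mature sequences are from RefSeq (GRCh38.p14), 5′ to 3′, with the seed (bases 2 to 8) in capitals.
miR-196b-5p, HOXA, chr7:27169528-27169549, minus strand: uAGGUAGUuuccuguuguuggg
miR-196a-5p, HOXC copy, chr12:53991762-53991783, plus strand: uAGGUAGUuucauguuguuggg
miR-10a-5p, HOXB, chr17:48579904-48579926, minus strand: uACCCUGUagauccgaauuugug
miR-615-3p, HOXC, chr12:54034010-54034031, plus strand: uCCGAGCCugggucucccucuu
MIR196B alone lay under a peak, at chr7:27169032-27170452, with 38, 34.9, 31.3 and 36.3 scaled CPM in Cal33 and 28.3, 19.6, 19.4 and 20.1 in SAS. The excess in Cal33 (0.67 ± 0.14, adjusted p = 2.90e-05) shrank to 0.17 with total counts and was then not called. The nearest peaks lay 293 bases from MIR615, 664 from MIR10B, 1243 from MIR196A2, 1575 from MIR10A and 4027 from MIR196A1. The MIR615 one (chr12:54032364-54033657) was low in Cal33 at 2.33 to 3.39 and higher in SAS at 12.5 to 15.1 (-2.32 ± 0.22, adjusted p = 1.55e-14).

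The siRNA comparison asked whether these sites opened or closed after siITGA7 within a line. In Cal33, 40 window peaks passed the filter and 2 passed the test, both lower, against 9.19% of all 75230 peaks tested (edgeR, adjusted p under 0.05). Lower calls made up 4.67% of all peaks and 9.93% of promoter-class peaks, so 2 of 40 (5.00%) was not more than the background. At an unadjusted p under 0.05 there were 6, and 15 of 40 values were positive and 25 negative. The median was -0.16, against -0.01 for all tested peaks and -0.12 for promoter-class peaks.

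The HOXA4 start peak fell in Cal33. Its siControl libraries measured 42.9, 53.2, 31.3 and 33 scaled CPM and its siITGA7 libraries 27.4, 24.5, 27.9 and 32.7. The siITGA7 values lay below the first 2 siControl libraries and met the lower 2, so the groups overlapped, and the log2 fold change was -0.48 ± 0.14 SE (adjusted p = 0.0218). As a share of HOXA counts the peak ranged from 12.5% to 17.2% in siControl and from 9.98% to 12.0% in siITGA7, without overlap. The second call was the shared start of HAGLR, a noncoding RNA of HOXD, and HAGLROS on its opposite strand (chr2:176177809-176179181). It measured 19.2, 23.4, 16.5 and 11.9 in siControl and 11.0, 13.9, 10.4 and 13.3 in siITGA7 (-0.52 ± 0.15, adjusted p = 0.0287). Here siControl replicate 4 lay among the siITGA7 values.

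Both Cal33 calls moved with single libraries and with a property of the controls. Cal33 siControl replicates 1 and 2 had 2 sequencing runs each and 46.4% and 47.1% of counts in promoter-class peaks, against 40.4% and 43.5% in replicates 3 and 4 and 40.3% to 42.1% in siITGA7. Replicate 4 of Cal33 siITGA7 also had 2 runs. A fit on libraries with 1 run therefore held only siControl 3 and 4 and siITGA7 1, 2 and 3, with less power than the main fit. In it, HOXA4 gave -0.26 (adjusted p = 0.261) and HAGLR -0.31 (adjusted p = 0.306). The part of runs, promoter share or fewer libraries in these values was not tested. Over the alternatives, adjusted p ran from 0.000104 to 0.261 for HOXA4 and from 0.00721 to 0.306 for HAGLR. When 1 library was omitted, the HOXA4 call was lost for siControl 1 (adjusted p = 0.0757), siControl 2 (0.106), siITGA7 1 (0.0576), siITGA7 2 (0.103) and siITGA7 3 (0.0707), and the HAGLR call for siControl 1 (0.0950), siControl 2 (0.106), siITGA7 1 (0.0907) and siITGA7 3 (0.108). The number of HOX calls in Cal33 was 0 without siControl 1, siControl 2 or siITGA7 3, 1 without siITGA7 1 or 2, and 8, all lower, without siControl 3.

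The next 3 Cal33 peaks by p did not pass. HOXA13 with HOTTIP was the only tested Cal33 peak whose groups did not overlap (against 14.6% of all peaks), with 19.8, 18.0, 17.6 and 16.5 scaled CPM in siControl and 15.7, 11.2, 11.8 and 15.4 in siITGA7 (-0.40 ± 0.14, adjusted p = 0.0594). HOXB1 gave 4.37, 3.73, 3.16 and 1.67 against 2.26, 1.82, 1.49 and 2.24 (-0.69 ± 0.29, adjusted p = 0.122). An intronic peak of HOXB3 at chr17:48584973-48586581 gave 9.6 to 16.3 against 7.83 to 10.8 (-0.37 ± 0.17, adjusted p = 0.161). The most accessible start, HOXC13, measured 68.6 to 121 in siControl and 70.5 to 85.0 in siITGA7 (-0.22 ± 0.14, adjusted p = 0.348), and HOXD8, the other gene open in Cal33 alone, 10.0 to 15.2 and 10.9 to 13.9 (0.02 ± 0.15, adjusted p = 0.955).

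**Figure D4:**
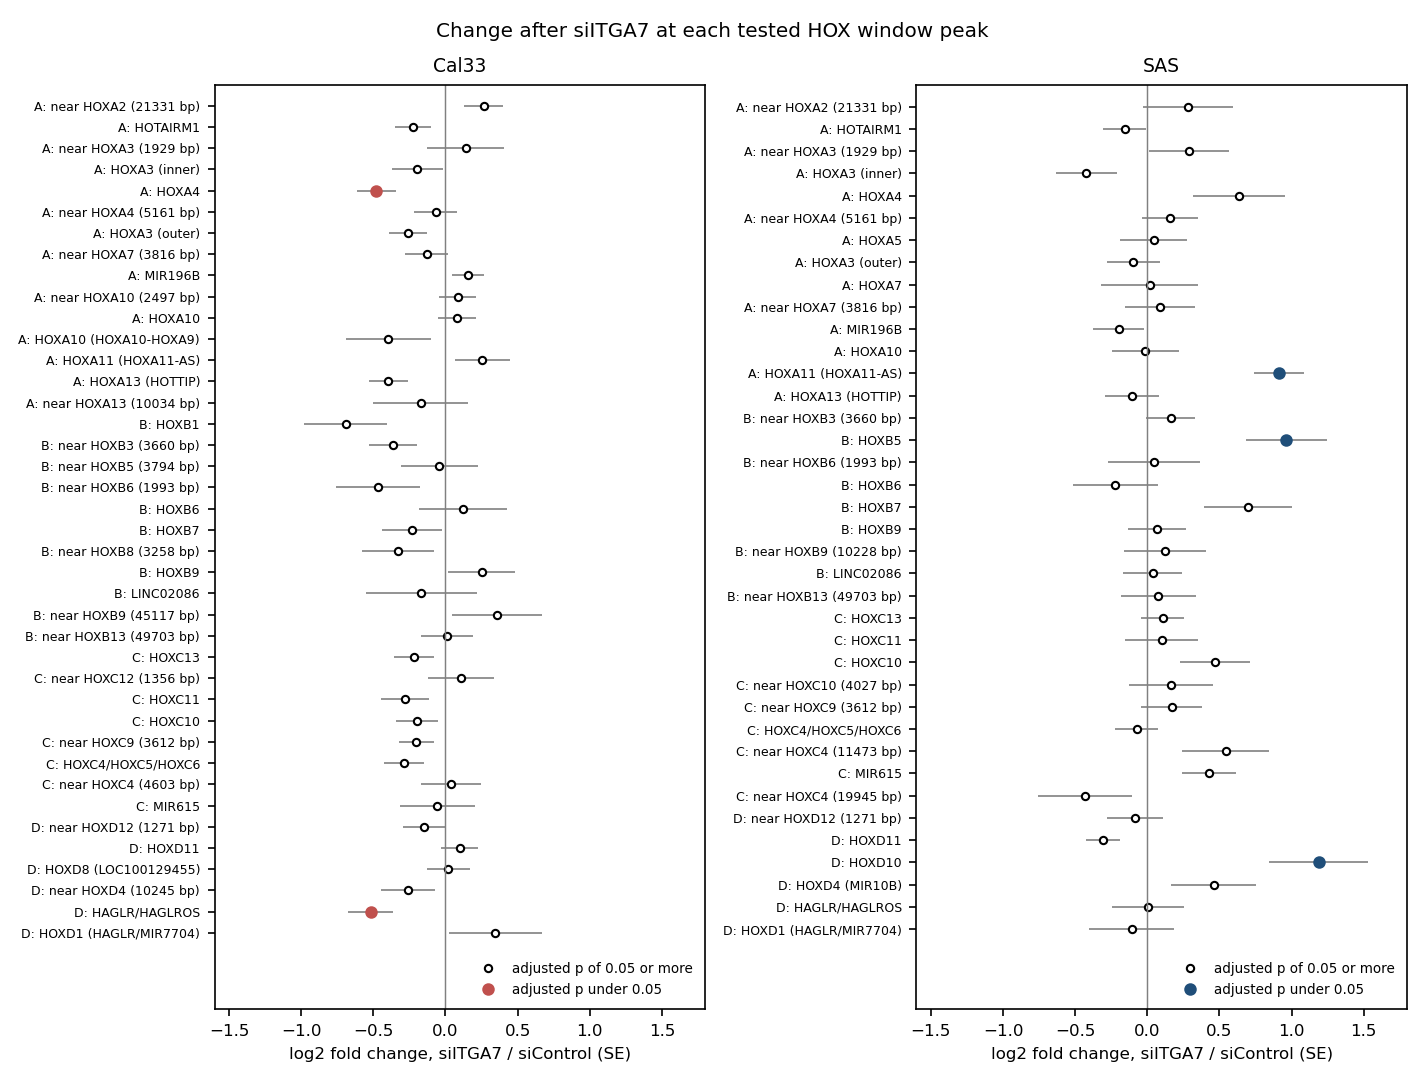
Log2 fold change (siITGA7 over siControl) with its SE of each HOX window peak tested in Cal33 (left, 40 peaks) and SAS (right, 38 peaks); the letter before a label is the cluster and filled circles passed an adjusted p under 0.05. In Cal33 the 2 filled circles, HOXA4 and HAGLR with HAGLROS, lie left of 0, and in SAS the 3 filled circles, HOXA11, HOXB5 and HOXD10, lie right of 0.

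In SAS, 38 window peaks were tested and 3 passed, all higher after siITGA7, against 7.03% of all 43600 peaks tested. Higher calls made up 4.04% of all peaks and 1.42% of promoter-class peaks; the HOX share was 7.89%. At an unadjusted p under 0.05 there were 8, and the median was 0.08 against 0.01 for all peaks and -0.14 for promoter-class peaks. The SAS siITGA7 libraries were the shallowest of the study and had 29.7% to 30.6% of counts in promoters against 33.1% to 34.1% in siControl; the part of either in these calls was not tested. Of the endothelial marker genes, 12 of 57 tested peaks were higher in SAS siITGA7, and those with the smallest p were all introns of VWF. The count thus weighs 1 gene with many peaks. The list's 2 start peaks summed to 3.97 to 7.88 scaled CPM in siControl and 4.86 to 8.92 in siITGA7, with none open. The part of this in the HOX calls was not tested.

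HOXA11 rose, at the peak over the start of the gene and of HOXA11-AS, its antisense RNA (chr7:27184137-27185250). It measured 13.3, 16.3, 13.9 and 12.2 scaled CPM in siControl and 31.1, 27.1, 19.0 and 26.7 in siITGA7. Every siITGA7 library lay above every siControl library, with a log2 fold change of 0.91 ± 0.17 (adjusted p = 8.0e-05). Within the HOXA counts its share went from a range of 5.59% to 8.0% in siControl to one of 8.42% to 12.4% in siITGA7, again without overlap. The call held in each fit that left out 1 library (adjusted p 3.46e-05 to 0.00210) and in all alternatives but the one thinned to the smallest library (0.0577; range over alternatives 2.92e-06 to 0.0577). In Cal33 the same peak gave 3.73 to 6.17 and 5.46 to 6.69 (0.25 ± 0.19, adjusted p = 0.432).

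HOXD10, a gene of the limb and of motor neurons, and HOXB5 rose too, from few counts. HOXD10's exon peak (chr2:176116892-176117381) had 12, 6, 19 and 9 counts in siControl, or 3.26, 3.27, 3.72 and 2.38 scaled CPM, and 6, 13, 9 and 11 counts in siITGA7, or 7.78, 9.03, 7.42 and 5.77. The scaled groups did not overlap, while the raw counts did, as the siITGA7 libraries were shallower (1.19 ± 0.34, adjusted p = 0.0164). HOXB5's start (chr17:48593480-48594161) had 18, 8, 24 and 19 counts, or 4.89, 4.36, 4.70 and 5.03 scaled CPM, against 8, 11, 15 and 16 counts, or 10.4, 7.64, 12.4 and 8.39. Its scaled groups were also apart (0.96 ± 0.28, adjusted p = 0.0180). HOXD10 lost the call without siControl 4 (0.0650), siITGA7 2 (0.136) or siITGA7 3 (0.0532), and HOXB5 without siITGA7 3 (0.121). Without siITGA7 3, 1 HOX peak was called in place of 3. Under DESeq2 neither passed (0.0755 and 0.103), and adjusted p over the alternatives ran from 0.00514 to 0.136 for HOXD10 and from 0.00449 to 0.121 for HOXB5.

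Groups did not overlap at 7 of the 38 SAS peaks, against 11.6% of all peaks. Besides the 3 calls, HOXD11 was lower, at 50.8, 68.1, 52.3 and 55.6 in siControl and 42.8, 47.2, 40.4 and 46.7 in siITGA7, but did not pass (-0.31 ± 0.12, adjusted p = 0.104). With no filter on low counts HOXD11 passed, at -0.51 (adjusted p = 0.00386; range over the alternatives 0.00386 to 0.536), and the SAS calls were then 1 higher, HOXA11, and 1 lower, HOXD11. That setting moved other peaks down too. HOXA11 went from 0.91 to 0.71 and HOXB5 from 0.96 to 0.77, and lower calls over all peaks went from 1305 to 4255. The HOXD11 call without a filter is therefore not particular to that peak. The inner HOXA3 start was also lower, at 13.7 to 17.4 and 9.89 to 13.2 (-0.42 ± 0.21, adjusted p = 0.233). HOXC10 went from 7.61 to 8.48 up to 9.03 to 13.1 (0.47 ± 0.24, adjusted p = 0.260), and the MIR615 peak from 12.5 to 15.1 up to 16.9 to 19.9 (0.43 ± 0.19, adjusted p = 0.160). HOXB7 gave 3.44 to 7.88 and 4.17 to 11.5 (0.70 ± 0.30, adjusted p = 0.158). Of the genes open in SAS alone, none passed: HOXA5 had a log2 fold change of 0.04 ± 0.23, HOXA7 0.02 ± 0.34, HOXB6 -0.22 ± 0.30, HOXB9 0.07 ± 0.20 and HOXD1 -0.11 ± 0.30, with adjusted p of 0.732 to 0.986.

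**Figure D5:**
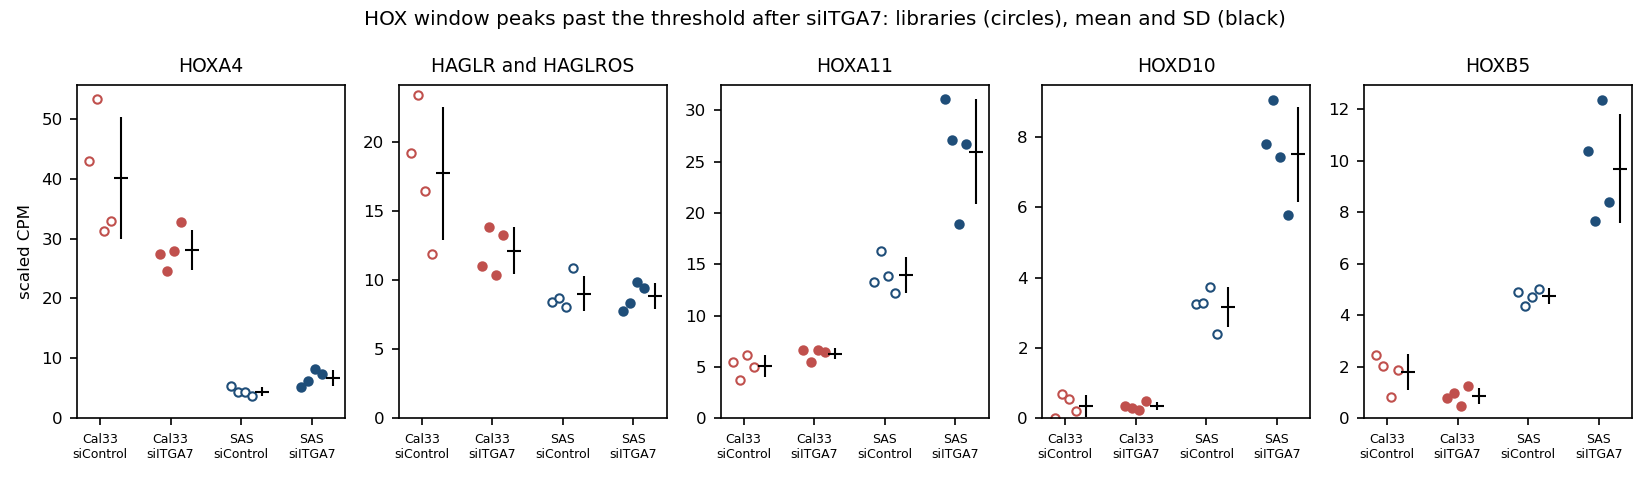
Scaled CPM of the 5 HOX window peaks past the threshold after siITGA7, in each library of the 4 groups (open circles siControl, filled siITGA7, red Cal33, blue SAS), with the mean and SD in black; each panel has its own linear axis from 0. HOXA4 and HAGLR with HAGLROS were lower in Cal33 siITGA7, and HOXA11, HOXD10 and HOXB5 higher in SAS siITGA7.

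Whether the change differed between the lines was tested directly in 1 fit over 16 libraries. Of 64 window peaks tested, 1 passed lower in Cal33 than in SAS (1.56%, against 0.761% of all 94918 peaks called and 0.27% called in this direction), and 9 had an unadjusted p under 0.05. It was HOXB5, which has long been studied as a regulator of gut neurons and vessels. In Cal33 its siControl libraries had 13, 6, 6 and 9 counts, or 2.47, 2.03, 0.823 and 1.88 scaled CPM, and its siITGA7 libraries 9, 7, 4 and 10 counts, or 0.783, 0.981, 0.495 and 1.24. It thus lay lower in Cal33 siITGA7, with 1 control among those values, and higher in SAS siITGA7. The Cal33 change less the SAS change was -1.82 ± 0.48 on the log2 scale (adjusted p = 0.0415). In Cal33 alone this peak was under the filter on low counts. Of 16 fits that each left out 1 library, 3 kept the call (those without Cal33 siControl 3, Cal33 siITGA7 4 or SAS siITGA7 2), and adjusted p over the alternatives ran from 0.00575 to 0.139.

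The next peaks by p did not pass. HOXA4 fell in Cal33 and in SAS gave 5.43, 4.36, 4.31 and 3.71 in siControl and 5.19, 6.25, 8.24 and 7.34 in siITGA7 (0.64 ± 0.32, adjusted p = 0.237), so its difference between lines was -1.01 ± 0.34 (adjusted p = 0.137). HOXD11 had a difference of 0.52 ± 0.19 (adjusted p = 0.169). HOXB4 had 6 and 2 counts in Cal33 siControl and siITGA7 and 38 and 27 in SAS, too few for a fold change (adjusted p = 0.194). HOXA9 had 10 and 10 counts in Cal33 and 48 and 37 in SAS (-1.69 ± 0.76, adjusted p = 0.311). HOXA11, called in SAS and not in Cal33, had a difference of -0.56 ± 0.27 that did not pass (adjusted p = 0.346), and HAGLR one of -0.42 ± 0.30 (adjusted p = 0.594). A call in 1 line alone is therefore not shown to be particular to that line for these genes.

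The genes that act with or on the HOX clusters were read from lists of all their annotated peaks. Among TALE cofactors, 54 peaks were tested in Cal33 and 7 were lower, none higher, against 4.67% lower of all peaks and 9.93% of promoter-class peaks (median -0.04, against -0.01 for all peaks). They included an intronic peak of MEIS2 (17.9 to 19.2 scaled CPM in siControl and 11.8 to 13.4 in siITGA7, -0.54 ± 0.12, adjusted p = 0.00562) and the promoter of the same gene (15.6 to 22.1 and 9.13 to 15, -0.56 ± 0.15, adjusted p = 0.0167). In SAS 5 of 26 were higher, against 4.04% of all peaks and 1.42% of promoter-class peaks, with 2 intronic peaks of PBX3 (1.42 ± 0.27 and 1.59 ± 0.31, adjusted p = 7.69e-05 and 0.000111) and 1 of PKNOX2 (1.81 ± 0.28, adjusted p = 7.42e-07) leading; all 3 were under 1 scaled CPM in every Cal33 library. MEIS2 was the 1 TALE peak of 71 whose change differed between lines, against 0.761% of all peaks called and 0.27% in this direction: its promoter gave 0.588 to 1.63 in SAS siControl and 2.47 to 6.95 in SAS siITGA7, and the difference was -2.64 ± 0.49 (adjusted p = 0.00111). These SAS values rest on few counts, as 1 count stood for 0.196 to 0.545 scaled CPM in siControl and 0.524 to 1.30 in siITGA7.

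Among genes of Polycomb complexes, 4 of 44 peaks were lower in Cal33, none higher (median -0.03), against 4.67% lower of all peaks and 9.93% of promoter-class peaks. Among the 4 were the promoters of CBX8 at -0.60 ± 0.14 (adjusted p = 0.00614) and EZH2, the H3K27 methyltransferase, at -0.42 ± 0.13 (adjusted p = 0.0431). The controls with 2 sequencing runs were again the highest, as for EZH2 with 70.7 and 67.8 against 42.1 and 49.4 in the other 2. In SAS 1 of 26 was lower, against 1305 of all 43600 peaks tested and 892 of 12258 promoter-class peaks. It was the promoter of EED, the subunit that reads H3K27 methylation, at 41.4 to 45.0 and 28.5 to 32.7 scaled CPM (-0.49 ± 0.13, adjusted p = 0.0104). Of the trithorax genes and H3K27 demethylases, 3 of 19 peaks passed in Cal33, against 9.19% of all peaks: MEN1 (-0.55 ± 0.11, adjusted p = 0.00242) and KMT2B (-0.99 ± 0.28, adjusted p = 0.0235) were lower and an exon peak of KDM6A was higher (0.82 ± 0.24, adjusted p = 0.0277). In the CDX and retinoid list, 3 of 28 passed in Cal33, near the 9.19% of all peaks: 2 rose, in RARA (0.96 ± 0.14, adjusted p = 5.36e-05) and in CYP26B1 (0.57 ± 0.15, adjusted p = 0.0116), and 1 in RARB fell (-0.63 ± 0.19, adjusted p = 0.0341). For CTCF and RAD21, which fold the clusters, 4 peaks were tested in Cal33 and 2 in SAS; edgeR called 0, and 2 and 1 had an unadjusted p under 0.05.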

How the data were processed

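ATAC-seq was measured in 16 libraries, 4 in each of 4 groups. The authors deposited raw counts per peak over 164980 peaks common to all libraries, per the file headers, with an annotation of each peak on GRCh38; their normalized signal, in which the authors divided these counts by 1 factor per library, was not used. The tool bcl2fastq 2.20.0 and the build hg38 appear in the submitters' processing notes. Aligner, peak caller, counting rule and treatment of duplicates were not given in the sources used here. HOX starts were taken from the RefSeq promoter table for 20 genes and, for 18 genes, from the gene boundary and the strand of the cluster.

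Counts were tested with edgeR 4.0.16 (R 4.3.3): TMM factors, filterByExpr with a minimum count of 10, robust quasi-likelihood F-tests and Benjamini-Hochberg adjustment over all peaks tested, with a threshold of 0.05. The Cal33, SAS and line comparisons were fitted on 8 libraries each and the difference of the siITGA7 changes on 16. Scaled CPM divide counts by the effective library size of each line's own fit, and the siControl fit sets the constant between lines (0.846 for Cal33 and 1.349 for SAS). Peaks without enough counts (45 of 85 in Cal33, 47 in SAS, 33 between lines, 21 for the difference) were not tested, and low counts cover counting error only. The test was checked on simulated data. Tables and figures were made with pandas 2.3.3 and matplotlib 3.10.9 in Python 3.11.15.

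Named were the start peaks of the HOX genes, the called window peaks, the 5 with the smallest p per siITGA7 comparison, the 6 most changed starts per direction between lines, noncoding genes with called peaks, and up to 3 called peaks per list, direction and comparison; some list genes are not reported here. The members and lists were chosen with earlier results of these data known. Alternatives were DESeq2 1.42.0, total counts, promoter-based TMM, no filter, thinning to the smallest library, a replicate block, leaving out each library, libraries with 1 sequencing run, and other open levels and start distances.

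Replicate numbers are labelled as a batch with no statement of what was shared. Deviations of same-numbered libraries correlated at -0.13 to -0.00034 in Cal33, -0.027 to 0.0063 in SAS and -0.052 to 0.0043 between lines, so no pairing was used.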

Additional observations from a re-analysis of the deposited data

Results flagged for a closer look

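Of 84 groups of 4 libraries examined, 5 held a library far from the other 3, and chance flags about 1 in 20 groups. HOXA10 was highest in Cal33 siITGA7 replicate 2, at 17.1 scaled CPM, and in SAS siITGA7 replicate 1, at 16.9, the library with the lowest depth of the study. HOXC13 was lowest in Cal33 siITGA7 replicate 1, at 70.5. HOXC10 was highest in SAS siControl replicate 4, at 8.48. The intronic HOXB3 peak at chr17:48584973-48586581 was highest in SAS siITGA7 replicate 2, at 31.3.

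The HOXB5 start was the only HOX window peak of 64 tested whose siITGA7 change differed between the lines at an adjusted p under 0.05 (edgeR), with a difference of -1.82 on the log2 scale.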

How the results depend on the processing

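The count of HOX peaks called in Cal33 (2) became 1 under DESeq2 and with total counts, 0 with promoter-based TMM factors or with 1-run libraries, and 0 to 8 when 1 library was left out. In SAS (3 higher) it became 1 under DESeq2, 2 with no filter (1 higher and 1 lower), 0 of 15 tested when counts were thinned to the smallest library, where depth is the limit by construction, and 1 to 4 when 1 library was left out. The line-dependent change (1) became 0 with no filter and when thinned, and 0 to 1 with 1 library left out. The line difference (40) became 63 with no filter (20 higher and 43 lower in Cal33), 22 of 29 tested when thinned (7 and 15), and 40 to 48 with 1 library left out. Open genes in SAS (16) numbered 25 at 2 scaled CPM, 10 at 10 scaled CPM and 16 to 18 with 1 library left out, and in Cal33 (13) 11 at 10, 17 at 2 and 13 to 14. HOXA10's line difference reversed to -0.045 with total counts, -0.0019 with promoter-based factors and -0.0058 after subtraction of the surrounding median. With the replicate block the 4 counts were 2, 3, 1 and 40; the numbers share only a label, and the block changed none of these counts. Of the settings tried on single peaks, 358 kept direction and side of the threshold, 45 lost the call, 7 gained one, 4 moved and 3 reversed; where a call changed, the cause was not tested. In SAS siITGA7, 3 counts stood for up to 3.89 scaled CPM, so smaller changes at closed starts were not detectable at this depth.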
